A study of Mus musculus with 8 samples.

Results

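*Tmem176a* and *Tmem176b* are 2 of the 53465 genes in the count table, found there by their symbols, and both were among the 14301 genes with enough counts to be tested. They encode multi-pass membrane proteins related to the MS4A family, which associate with one another, sit mainly on Golgi and endolysosomal membranes and pass cations. In dendritic cells the pair is known from antigen presentation and, for *Tmem176b*, from restraint of the NLRP3 inflammasome. The pair was chosen by its measured levels (CPM) over the 4 groups in both lines, so its values in all 8 libraries were already known. Its levels and differences are therefore given as a description with no test, and tests are given for other genes only.

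RNA-seq was performed on 2 mouse pancreatic ductal adenocarcinoma (PDAC) cell lines, B73 and B87, each cultured from a primary pancreatic tumor and passaged before use. The model carries *Ptf1a*-Cre, a *Rosa26* allele with rtTA3 and mKate2, and a doxycycline (Dox)-inducible hairpin against *Smad4* with GFP at *Col1a1*, and all 8 libraries share these alleles. SMAD4 is the partner through which receptor-activated SMAD proteins act on genes after TGFβ binds its receptors. Smad4-off cells stayed on Dox, Smad4-on cells had been without Dox for 5 days, and each was treated for 24 h with 100 pM TGFβ1 or with 2.5 µM SB505124, which blocks the kinase of the type I receptor for TGFβ. Each of the 4 groups held 1 library from each line, so a value from 1 line has no replicate and a line cannot be told apart from its culture. Every Smad4-on cell also lacked Dox, so restoration of *Smad4* and loss of Dox cannot be told apart.

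Library totals ran from 18389235 to 23440550 counts. Levels are CPM, counts scaled to a common library size, after TMM normalization, a scaling that makes the bulk of genes comparable between libraries, and 3 counts equalled 0.125 to 0.162 CPM. *Smad4* itself stood at 33.7 to 35.5 CPM in the 4 Smad4-off libraries and at 97.4 to 117 CPM in the 4 Smad4-on libraries, so the labels held in each. The ductal keratins *Krt8*, *Krt18* and *Krt19* each had at least 2994 counts in every library, whereas *Epcam* had only 3 to 39 counts. *Krt7*, also a ductal keratin, differed between the lines, with 9295 to 13461 counts in B73 and 293 to 577 in B87. The 10 acinar markers together gave at most 1.41 CPM.

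*Tmem176a* (ENSMUSG00000023367) lies on the plus strand at chr6:48840919-48847071 and *Tmem176b* (ENSMUSG00000029810) on the minus strand at chr6:48833818-48841496 (GRCm38). The genes run away from each other and their annotated spans overlap by 578 bases at the shared 5′ end. The overlap holds only 81 bases that are exonic in both, 2.13% of the exon length of *Tmem176a* and 3.42% of that of *Tmem176b*. None of the 3954 stretches of 75 bases (the read length) in *Tmem176a* transcripts, and none of the 2873 in *Tmem176b* transcripts, also occurred in a transcript of another gene or, on the opposite strand, in its partner. By this measure no full-length read of one member matched exactly the other or an annotated transcript of another gene. Copies with a mismatch and copies outside annotated transcripts were not searched for.

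The starts that RefSeq gives for the pair and that lie nearest each other are at position 48841374 for *Tmem176b* and 48841483 for *Tmem176a* (GRCm38.p6), leaving 108 bases between them. These bases were 63.9% G and C against a median of 52.7% over all promoter windows, and they held 0 CpG. The 30 bases shown here are the piece that holds the only matches found there, and they are printed because both genes start around them.

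chr6:48841425-48841454, plus strand: CAGCTGcctgccaggaagtgttgagGTCTG

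The capitals mark CAGCTG, an E-box, and GTCTG, which is the SMAD box CAGAC read on the minus strand. In 1 of the 12 annotated *Tmem176b* transcripts these bases belong to the 5′ untranslated exon, and in none of the 7 of *Tmem176a*. Both strands were searched for 10 motifs over the 108 bases and over 32851 promoter windows of 300 bases (250 before a start to 50 after it). CAGAC was present in 49.6% of all windows and CAGCTG in 16.3%, in windows longer than the 108 bases. In the 300-base windows of the pair, CAGAC was present in 2 of 2 for *Tmem176a* and 2 of 3 for *Tmem176b*. CAGCTG was present in 2 of 2 and 1 of 3. Neither match was taken to set this promoter apart. The palindromic SMAD element GTCTAGAC (0.213% of windows), the AP-1 element TGANTCA (7.81%), the GC-rich SMAD element GGCGC (36.9%), TATAAA (13.6%), CCAAT (37.4%), CAGGTG (20.2%), GGGCGG (35.7%) and AGGTCA (16.3%) were not found in the 108 bases, a shorter stretch than the windows these shares come from. In the 300-base windows of the pair itself, CAGGTG was present in 1 of 2 for *Tmem176a* and 2 of 3 for *Tmem176b*, GGCGC in 1 of 2 and 1 of 3, and the other 6 of these 8 motifs in none. A match describes letters only and gives no evidence of binding.

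Both genes had their highest level in Smad4-off cells under SB505124 and their lowest in Smad4-on cells under TGFβ1, in both lines. *Tmem176a* stood at 116 CPM in B73 and 111 in B87 in Smad4-off cells under SB505124. It stood at 57.5 and 63.9 CPM in Smad4-off cells under TGFβ1, at 47.1 and 51.7 in Smad4-on cells under SB505124, and at 13.6 and 16.5 in Smad4-on cells under TGFβ1. The 2 lines lay close together in each group. The closest neighbours in this order were the 2 middle groups, whose gap was smaller than the distance between the lines within the Smad4-off TGFβ1 group. In raw counts *Tmem176a* had 2324 in B73 and 2521 in B87 in the highest group, 1343 and 1282, then 872 and 1242 in the middle groups, and 266 and 323 in the lowest. The lowest level rested on 266 counts (95% Poisson interval 235 to 300), so that counting error was small beside the distance between groups. Such intervals cover counting error only, because PCR copies cannot be told from separate molecules in a count table.

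*Tmem176b* followed the same order at higher counts. Its levels were 206 CPM in B73 and 222 in B87 in Smad4-off cells under SB505124, 130 and 179 in Smad4-off cells under TGFβ1, 75.1 and 108 in Smad4-on cells under SB505124, and 34.5 and 44.9 in Smad4-on cells under TGFβ1. The lines were further apart than for *Tmem176a*, and B87 was the higher line in all 4 groups. The gap between each pair of neighbouring groups was smaller than the distance between the lines within one of them, so the order rests on the comparison inside each line. As a share of its own level in Smad4-off cells under SB505124, *Tmem176b* kept 16.8% in B73 and 20.3% in B87 in Smad4-on cells under TGFβ1. *Tmem176a* kept 11.7% and 14.9%. The raw counts of *Tmem176b* were above those of its partner in all 8 libraries, from 5045 in B87 and 4124 in B73 with Smad4 off under SB505124 to 881 and 676 with Smad4 on under TGFβ1.

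**Figure D1:**
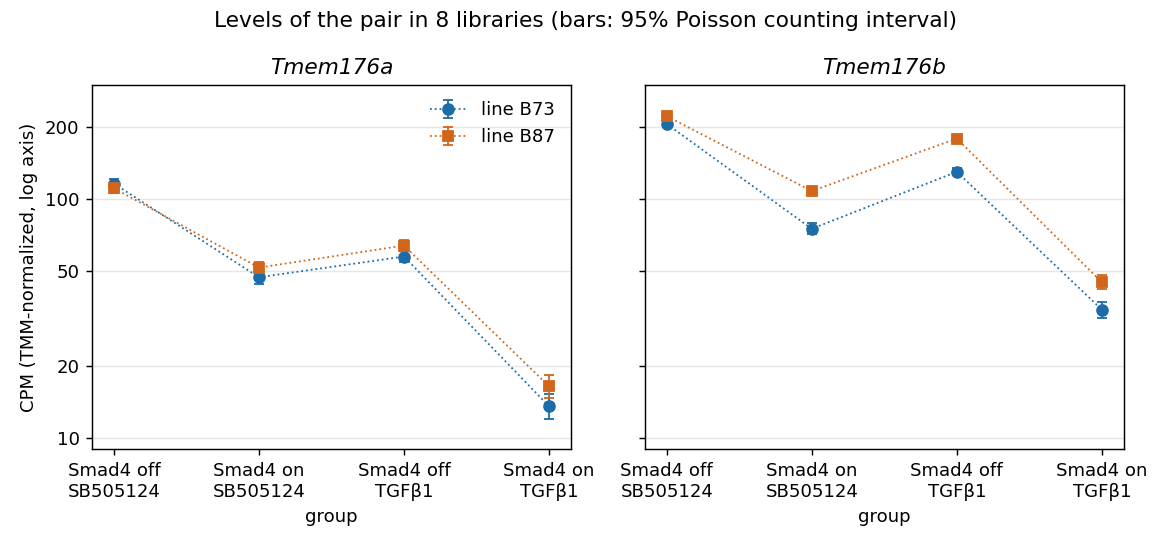
Levels of *Tmem176a* and *Tmem176b* (CPM, log axis) in the 4 groups, with 1 point per library, the lines B73 and B87 in different colours and bars for the 95% Poisson interval of the count. Both genes go from their highest level in Smad4-off cells under SB505124 (111 to 116 CPM and 206 to 222 CPM) to their lowest in Smad4-on cells under TGFβ1 (13.6 to 16.5 CPM and 34.5 to 44.9 CPM).

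Between the highest and the lowest group *Tmem176a* differed 8.49-fold in B73 and 6.69-fold in B87. *Tmem176b* differed 5.95-fold and 4.93-fold, less in each line than its partner. These differences placed the pair at different ranks among the genes of a library. In Smad4-off cells under SB505124, *Tmem176a* exceeded 86.0% (B73) and 85.3% (B87) of tested genes and *Tmem176b* exceeded 93.7% and 94.1%. In Smad4-on cells under TGFβ1, the same shares were 41.4% and 44.2% for *Tmem176a* and 58.1% and 64.7% for *Tmem176b*. Since these are bulk libraries, fewer cells with the transcripts and less RNA per cell cannot be told apart.

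The first comparison asked how the pair differed between Smad4-on and Smad4-off cells while TGFβ signalling was driven. Under TGFβ1, *Tmem176a* was 4.22-fold lower with Smad4 on in B73 and 3.86-fold lower in B87, a mean difference in log2 CPM of -2.01 ± 0.09 (SD, n = 2 lines). *Tmem176b* was 3.77-fold and 3.98-fold lower, a mean of -1.95 ± 0.06 (SD, n = 2 lines). The genes thus differed by nearly the same factor. In this comparison 2.57% of tested genes were over 2-fold lower in both lines, with no test applied, and only 136 genes had a lower mean difference than *Tmem176a* and 146 than *Tmem176b*. The median over all tested genes was -0.009 on the log2 scale.

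With the receptor kinase inhibited, the pair was still lower in Smad4-on cells, by a smaller factor. Under SB505124, *Tmem176a* was 2.46-fold lower in B73 and 2.14-fold lower in B87 (mean difference in log2 CPM -1.20 ± 0.14, SD, n = 2 lines). *Tmem176b* was 2.74-fold and 2.05-fold lower (mean -1.24 ± 0.30, SD, n = 2 lines). Fewer genes of the table differed here, with 0.944% over 2-fold lower in both lines, and the members ranked much as before, with 187 genes lower than *Tmem176a* and 173 lower than *Tmem176b*. Both Smad4 comparisons together were met by 72 genes (0.503% of those tested) that were over 2-fold lower in both lines in each.

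The 2 Smad4 differences can be set side by side in each line. For *Tmem176a* the Smad4 difference was further down under TGFβ1 than under SB505124 by 0.78 log2 units in B73 and by 0.85 in B87. For *Tmem176b* the same step was 0.46 in B73 and 0.96 in B87. All 4 values pointed one way, although for *Tmem176b* the step in one line was about as large as the distance between the lines. By the mean of this difference of differences, 6.85% of tested genes lay below *Tmem176a* (-0.81) and 8.51% below *Tmem176b* (-0.71). It was not tested for the pair.

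**Figure D2:**
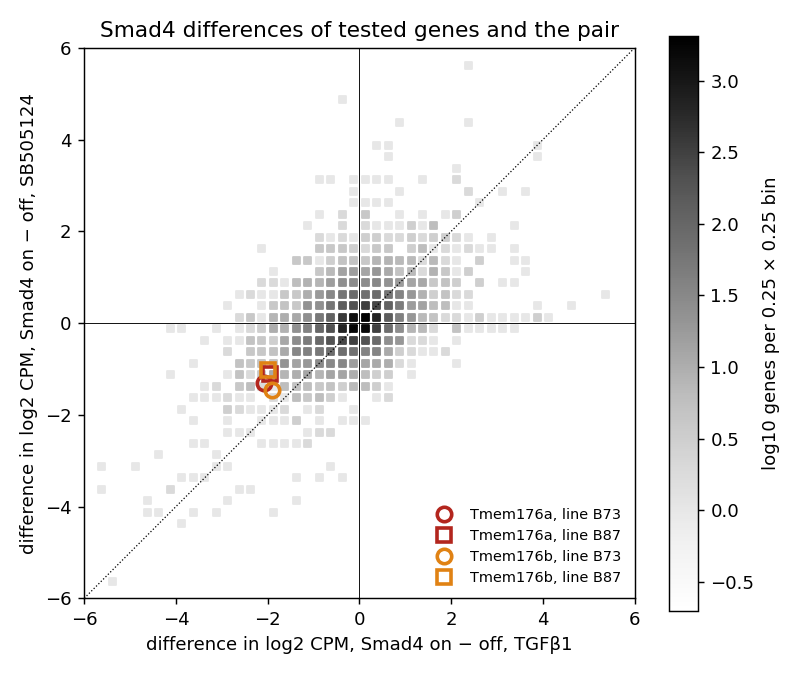
Difference in log2 CPM between Smad4-on and Smad4-off cells under TGFβ1 (x axis) and under SB505124 (y axis), with grey squares for the number of tested genes per bin, coloured symbols for the pair in each line and a dotted line where both differences are equal. The 4 symbols lie between -2.08 and -1.91 on the x axis and between -1.45 and -1.03 on the y axis, above the dotted line, and 2 of the 14301 genes lie outside the plotted range.

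The other pair of comparisons set TGFβ1 against SB505124 within one Smad4 state, and each shares its libraries with the comparisons given before. In Smad4-on cells, *Tmem176a* was 3.45-fold lower under TGFβ1 in B73 and 3.12-fold lower in B87 (mean difference in log2 CPM -1.72 ± 0.10, SD, n = 2 lines). *Tmem176b* was 2.17-fold and 2.40-fold lower (mean -1.19 ± 0.10, SD, n = 2 lines). Many more genes differed with treatment than with Smad4, with 7.15% over 2-fold lower in both lines, and here 4.55% of tested genes had a lower difference than *Tmem176a* and 7.88% a lower one than *Tmem176b*.

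In Smad4-off cells the difference between treatments was smaller for both genes. *Tmem176a* was 2.01-fold lower under TGFβ1 in B73 and 1.73-fold lower in B87 (mean -0.90 ± 0.15 on the log2 scale, SD, n = 2 lines). *Tmem176b* was 1.58-fold and 1.24-fold lower (mean -0.48 ± 0.25, SD, n = 2 lines), the least of the 4 comparisons. Over 2-fold lower in both lines were 3.09% of tested genes but neither member, and 13.4% of tested genes had a lower difference than *Tmem176b*. The Smad4-off cells kept a reduced level of *Smad4*, so this comparison is not one without SMAD4.

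**Figure D3:**
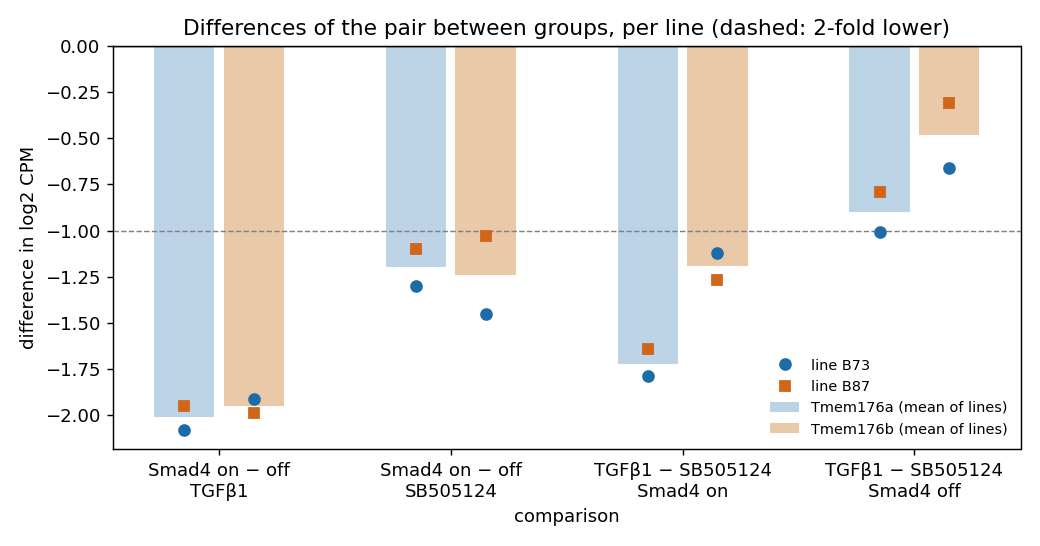
Differences in log2 CPM of *Tmem176a* (blue bars) and *Tmem176b* (brown bars) in the 4 comparisons, as the mean of the lines with a point for each line and a dashed line at 2-fold lower. All 16 points are below 0, and the members differ most from each other in the comparisons of TGFβ1 with SB505124 (mean -1.72 against -1.19 with Smad4 on, -0.90 against -0.48 with Smad4 off).

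The members were thus alike in their Smad4 differences and unlike in their treatment differences, which is seen directly in their share of the counts. *Tmem176a* gave 36.0% of the counts of the pair in Smad4-off cells and 38.5% in Smad4-on cells under SB505124 in B73, and 33.3% and 32.3% in B87. Under TGFβ1 it gave 30.6% and 28.2% in B73, and 26.3% and 26.8% in B87. The 4 SB505124 libraries (32.3% to 38.5%) lay above the 4 TGFβ1 libraries (26.3% to 30.6%) with no overlap. Exact binomial 95% intervals ran from 30.9% to 33.8% for the lowest SB505124 library and from 29.3% to 32.0% for the highest TGFβ1 library, so these 2 libraries of different lines were not separated by counting error. Inside each line the intervals of the 2 treatments did not meet. This contrast was noticed in these libraries and was not tested.

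**Figure D4:**
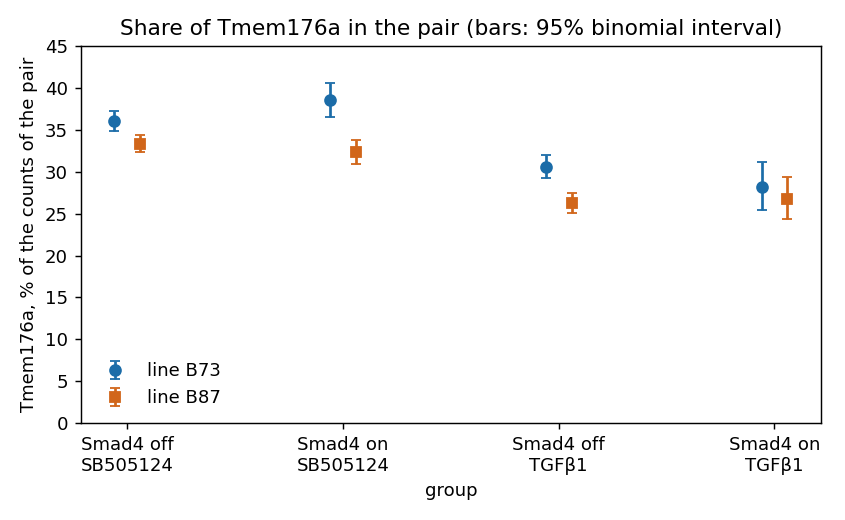
Share of *Tmem176a* in the summed counts of the pair (percent, axis from 0) in the 4 groups, with 1 point per library and exact binomial 95% intervals. The SB505124 libraries lie at 32.3% to 38.5% and the TGFβ1 libraries at 26.3% to 30.6%.

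Per length, *Tmem176b* was the more abundant transcript in all 8 libraries. The ratio of *Tmem176b* to *Tmem176a* was 2.56 to 4.51 per kilobase of the merged exons, which cover 2371 bases in *Tmem176b* and 3810 in *Tmem176a*. Per kilobase of the median principal transcript (1238 and 1313 bases) it was 1.69 to 2.97. The direction held with either length, while its size depended on the length chosen.

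The levels of the members moved together over the 8 libraries, with a Pearson correlation of 0.97 for log2 CPM, and 0.979 after the mean of each line was subtracted. The 8 points are 4 conditions in 2 lines and share libraries across genes, so the values are a description. Of 11098 genes with a mean of at least 1 log2 CPM, 13 correlated more closely with *Tmem176a* than *Tmem176b* did, and 5 correlated more closely with *Tmem176b* than *Tmem176a* did. After line means were subtracted, these numbers were 26 and 13. Head-to-head neighbours in general were less alike. Among 875 gene pairs whose starts lie within 1000 bases on opposite strands and whose members both reached 1 log2 CPM, the median correlation was 0.303 and 5 pairs were above *Tmem176a* and *Tmem176b*. This set of pairs was drawn up after the pair's values were known.

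Few head-to-head pairs differed jointly. Both members were over 2-fold lower in both lines in 4 of the 875 pairs (0.457%) for Smad4 under TGFβ1, in 2 (0.229%) for Smad4 under SB505124 and in 3 (0.343%) for TGFβ1 against SB505124 with Smad4 on. *Tmem176a* and *Tmem176b* were one of the pairs in each of these 3 counts. The other pair in both Smad4 comparisons was *Col4a3* and *Col4a4*, which encode chains of basement membrane collagen and had a correlation of 0.983. With Smad4 off, 1 pair met the criterion for treatment, and it was not *Tmem176a* and *Tmem176b*.

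Genes most like the mean of the pair were found by the same correlation. Over the 8 libraries these were *1700008J07Rik* (0.985), *Gstz1* (0.98), *Zscan21* (0.98), *Pax9* (0.976) and *Cdk5rap3* (0.973). Of these, *Pax9*, a paired-box transcription factor, spanned the widest range, from 128 CPM in B73 and 102 in B87 in Smad4-off cells under SB505124 to 5.82 and 6.17 in Smad4-on cells under TGFβ1. *Gstz1* stayed between 18.8 and 35.1 CPM, so likeness of pattern did not mean likeness of size. After line means were subtracted, the closest were *Arrdc2* (0.996), *Arhgef10l* (0.996), *1700008J07Rik* (0.992), *Ankzf1* (0.99) and *Slc12a2* (0.99). *Arhgef10l*, which encodes a guanine nucleotide exchange factor, stood at 55.2 CPM in the first of these groups and 9.59 in the second in B73, and at 14.3 and 2.70 in B87.

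By size, 21 genes (0.147% of those tested) were over 2-fold lower in both lines in both Smad4 comparisons and in the comparison of TGFβ1 with SB505124 in Smad4-on cells. *Tmem176b* was the first of the 21 by mean level (125 CPM) and *Tmem176a* the third (59.6 CPM), with *Thsd4*, a gene of extracellular matrix, between them. *Pax9* was also one of the 21. These comparisons share libraries, and the pattern was set with the values of the pair known.

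The genes around the pair were examined next. Within 500 kb on either side were 58 other genes, of which 32 had 0 counts in all libraries and 14 (24.1%) were tested, a share close to the 26.7% of all genes in the table. The nearest tested genes were *Gimap9*, 155 kb to the left with a mean of 0.60 CPM, and *Gpnmb*, 189 kb to the right with 12.5 CPM, and only *Tra2a*, a splicing factor with 154 CPM, stood above *Tmem176a*. Of 8 *Gimap* genes, a family of lymphocyte GTPases next to the pair, 5 had 0 counts throughout. Of the 14 neighbours, 0 were called for Smad4 under TGFβ1 and 0 under SB505124 by edgeR's quasi-likelihood test (Benjamini-Hochberg adjusted p under 0.05 and over 2-fold), where 3.12% and 1.09% of all tested genes were called. At an unadjusted p under 0.05 there were 4 and 1 of the 14, and DESeq2 with line called 1 and 0. Their median log2 fold changes were -0.36 and 0.01. By the criterion used for the pair, with no test, *Gpnmb* and *Igf2bp3* were over 2-fold lower in both lines under TGFβ1, where 2.57% of tested genes were. The differences in log2 CPM were -2.30 in B73 and -1.42 in B87 for *Gpnmb*, and -1.37 and -1.58 for *Igf2bp3*. *Igf2bp3* had only 56 and 13 counts with Smad4 off and 17 and 3 with Smad4 on. It was called by edgeR without a filter on low counts (adjusted p = 0.0197).

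*Gpnmb*, which encodes a transmembrane glycoprotein of melanosomes and lysosomes, was the neighbour with the widest differences. It had 149 counts in B73 and 77 in B87 with Smad4 off under TGFβ1, and 24 and 27 with Smad4 on, an edgeR log2 fold change of -1.96 ± 0.55 (SE) that did not pass (adjusted p = 0.0835). It was called by DESeq2 with line (adjusted p = 0.00168) and by edgeR without the Smad4-on SB505124 library of B73 (adjusted p = 0.0193) or B87 (adjusted p = 0.0208). For TGFβ1 against SB505124 with Smad4 on, *Gpnmb* fell by 4.13 ± 0.53 (SE) on the log2 scale (edgeR adjusted p = 0.00166), the 1 call among the 14 neighbours where 13.9% of tested genes were called. For *Zfp467* (edgeR adjusted p = 0.0637) 5 alternatives made a call (adjusted p = 0.00793 to 0.036), among them leaving out the SB505124 library of B73 with Smad4 on (adjusted p = 0.036) or off (adjusted p = 0.0266) or that of B87 with Smad4 off (adjusted p = 0.0258). For *Repin1* (edgeR adjusted p = 0.108) 2 did, no filter on low counts (adjusted p = 0.0157) and leaving out the Smad4-on SB505124 library of B73 (adjusted p = 0.0117). With Smad4 off, where 5.93% were called, *Gpnmb* fell by 2.04 ± 0.45 (SE, edgeR adjusted p = 0.0283). In the same comparison *Zfp862-ps*, a zinc finger pseudogene, rose from 185 to 552 counts in B73 and from 173 to 557 in B87 (edgeR adjusted p = 0.00441). The *Gpnmb* call with Smad4 off was lost without the Smad4-off SB505124 library of B73 (adjusted p = 0.147), without the Smad4-off TGFβ1 library of B73 (adjusted p = 0.0827) or without that of B87 (adjusted p = 0.192), and in edgeR without line in the model (adjusted p = 0.103).

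**Figure D5:**
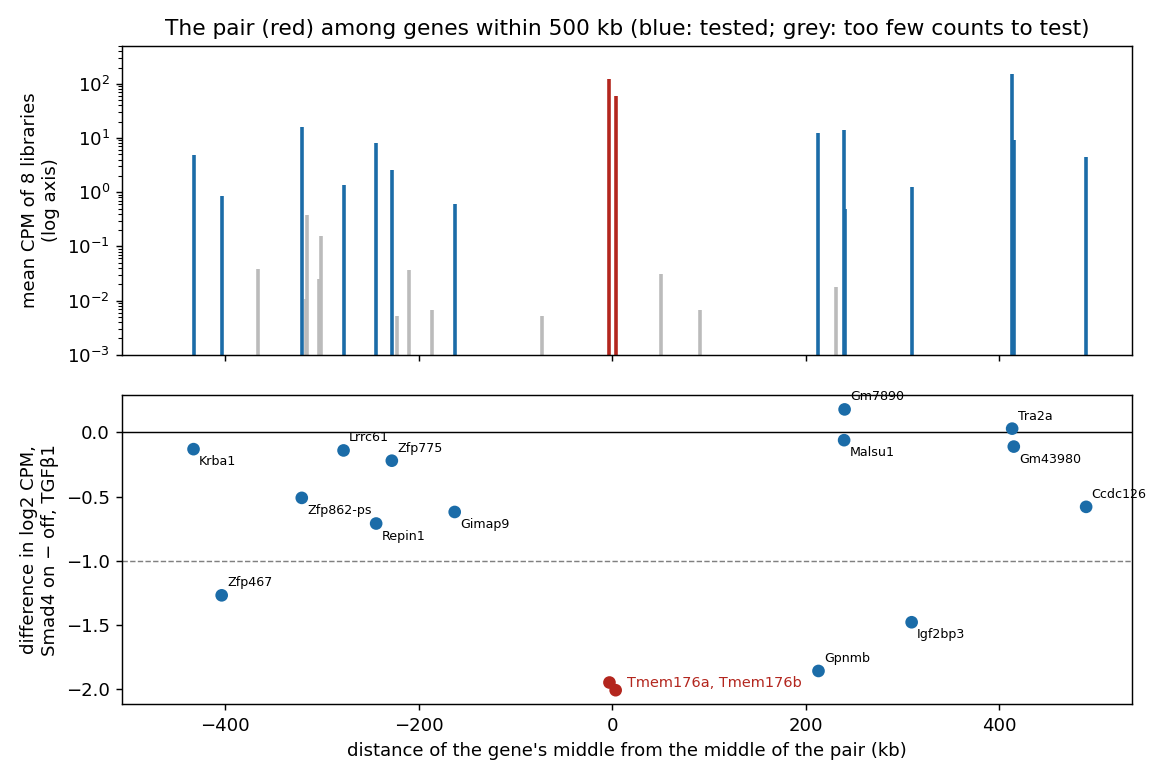
Genes within 500 kb of the pair, by the distance of their middle from the middle of the pair (kb), with the mean CPM of 8 libraries above (log axis; genes with 0 counts have no line) and the difference in log2 CPM between Smad4-on and Smad4-off cells under TGFβ1 below. The pair (red) stands at 59.6 and 125 CPM in a stretch where only *Tra2a* at 154 CPM is above *Tmem176a*, and its differences of -2.01 and -1.95 are the lowest shown, with *Gpnmb* at -1.86.

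The family to which the pair is related was almost silent. Of 17 MS4A genes, 12 had 0 counts in all libraries and none had enough counts to be tested, with at most 24 counts (*Ms4a10*) and 13 counts (*Ms4a8a*), both in the B73 Smad4-on SB505124 library. The MS4A genes together gave 0.0 to 2.0 CPM per library, against a lowest value of 13.6 CPM for *Tmem176a* alone. No MS4A gene reached a level at which a difference like that of the pair could be tested.

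Of 11 genes of the NLRP3 inflammasome and its substrates, 7 were tested. The sensor *Nlrp3*, the adaptor *Pycard* and the cytokine gene *Il1b* had at most 5 counts in any library, so these parts of the machinery that *Tmem176b* is known to restrain were at or near the limit of detection. *Casp4*, an inflammatory caspase, had 249 counts in B73 and 234 in B87 with Smad4 off under TGFβ1 and 15 and 32 with Smad4 on. It was the 1 list member called for Smad4 under TGFβ1, where 1.80% of tested genes fell, and changed by -3.23 ± 0.42 (SE) on the log2 scale (edgeR adjusted p = 0.00839). Under SB505124, where 0.455% fell, it was again the 1 member called, at -3.01 ± 0.42 (SE, edgeR adjusted p = 0.0216). In edgeR without line neither call was made (adjusted p = 0.0933 and 0.28), whereas DESeq2 without line made both. The TGFβ1 call was also lost without the Smad4-off TGFβ1 library of B73 (adjusted p = 0.0599). The SB505124 call was lost without the B73 library with Smad4 off (adjusted p = 0.0736), the B73 library with Smad4 on (adjusted p = 0.152) or the B87 library with Smad4 on (adjusted p = 0.0578). Of the 7 tested genes, 0 were called for treatment in either Smad4 state by edgeR or by DESeq2 with line. At an unadjusted edgeR p under 0.05 there were 1 (Smad4 on) and 0 (Smad4 off). Among all tested genes edgeR called 13.9% (Smad4 on) and 5.93% (Smad4 off), so 0 of 7 does not stand apart from these shares. *Casp4* thus lay in the direction of the pair for Smad4, while its log2 fold changes between treatments were -0.15 ± 0.48 and 0.07 ± 0.35 (SE) beside -1.72 and -0.90 for *Tmem176a*.

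Of 17 ion channels and exchangers of the endolysosome, the compartment in which the pair is known to sit, 16 were tested. Of these, 0 were called for Smad4 under either treatment by edgeR or by DESeq2 with line. Among all tested genes edgeR called 3.12% (TGFβ1) and 1.09% (SB505124), so 0 of 16 does not stand apart from these shares. At an unadjusted edgeR p under 0.05 there were 2 (TGFβ1) and 4 (SB505124). For TGFβ1 against SB505124 with Smad4 on, 4 of the 16 fell and 0 rose, where 8.31% of tested genes fell. *Tmem63a*, an osmosensitive channel, had 2231 counts in B73 and 1963 in B87 under SB505124 and 929 and 722 under TGFβ1, and fell by 1.25 ± 0.10 (SE) on the log2 scale (edgeR adjusted p = 0.000245). *Tpcn1*, an endolysosomal two-pore channel, fell by 1.04 ± 0.11 (SE, edgeR adjusted p = 0.000701), and by 0.90, under 2-fold, without either B73 library of the comparison. The calls of *Mcoln2* and *Slc9a9* rested on libraries of at most 43 and 39 counts and were lost without the B87 SB505124 library (adjusted p = 0.0859 and 0.117). Both were also lost in edgeR without line (adjusted p = 0.117 and 0.111) and without 1 TGFβ1 library, that of B87 for *Mcoln2* (adjusted p = 0.108) and that of B73 for *Slc9a9* (adjusted p = 0.0573). With Smad4 off only *Mcoln2* was called, where 2.82% of tested genes fell, and that call was not made by DESeq2 with or without line, which gave no adjusted p, and was lost in edgeR without line (adjusted p = 0.336) and without the B87 SB505124 library (adjusted p = 0.0891) or either TGFβ1 library (adjusted p = 0.079 and 0.248). The median log2 fold change of the 16 was -0.01 for Smad4 under TGFβ1, beside -2.01 and -1.95 for the pair.

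Of 14 genes for MHC class II antigen presentation, 5 were tested. Of these, 0 were called in any of the 4 comparisons by edgeR or by DESeq2 with line. At an unadjusted edgeR p under 0.05 there were 1 or 2 per comparison. Among all tested genes edgeR called 3.12%, 1.09%, 13.9% and 5.93% in the 4 comparisons, so 0 of 5 does not stand apart from these shares. *H2-Aa* had 0 counts and *Cd74* at most 2, while the cathepsin genes *Ctsl* (793 CPM on average) and *Ctsb* (616 CPM), which many cells use, made up most of the list. Of the genes with which *Tmem176a* and *Tmem176b* are known in dendritic cells, 8 of these 14 had at most 3 counts in every library.

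Most of 14 TGFβ feedback and response genes differed between the treatments in the direction opposite to the pair. For TGFβ1 against SB505124, 8 rose and 1 fell with Smad4 on, where 5.62% of tested genes rose, and 8 rose and 0 fell with Smad4 off, where 3.11% rose. *Smad7*, an inhibitory SMAD, rose by 2.48 ± 0.12 (SE, edgeR adjusted p = 5.48e-05) and by 1.93 ± 0.12 (SE, edgeR adjusted p = 0.000467) on the log2 scale, where *Tmem176a* had mean differences of -1.72 and -0.90. The 1 gene that fell, *Tgfbi* (edgeR adjusted p = 0.0386), was called by DESeq2 without line but not by edgeR without line (adjusted p = 0.0831), nor without the Smad4-on SB505124 library of B87 (adjusted p = 0.221) or without the Smad4-on TGFβ1 library of B73 (adjusted p = 0.16) or B87 (adjusted p = 0.096). For Smad4 under TGFβ1, where 1.31% of tested genes rose and the pair was lower, *Smad7* rose by 1.14 ± 0.11 (SE, edgeR adjusted p = 0.00317) and was also called by edgeR and DESeq2 without line. *Bhlhe40* rose as well (edgeR adjusted p = 0.0187), a call made by DESeq2 without line but lost in edgeR without line (adjusted p = 0.185) and without either B73 library of the comparison (adjusted p = 0.106 and 0.0972).

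Markers of the cells in which the pair is best known were examined beside it. Of 16 dendritic cell and macrophage genes, 9 had at most 3 counts in every library, among them *Ptprc*, and *Adgre1*, *Itgax*, *Tyrobp*, *C1qa* and *C1qb* had 0. Their summed level was 47.0 to 61.1 CPM in Smad4-off cells under SB505124, 42.3 to 45.9 in Smad4-off cells under TGFβ1, 31.8 to 35.0 in Smad4-on cells under SB505124 and 28.7 to 41.4 in Smad4-on cells under TGFβ1. *Cd14*, with 411 to 970 counts, held most of this sum. Of the 4 tested genes 0 were called for Smad4 under either treatment by edgeR or by DESeq2 with line. Among all tested genes edgeR called 3.12% (TGFβ1) and 1.09% (SB505124), so 0 of 4 does not stand apart from these shares. At an unadjusted edgeR p under 0.05 there were 3 (TGFβ1) and 2 (SB505124). Between treatments edgeR called *Mrc1* alone, which rose in Smad4-on cells (edgeR adjusted p = 0.0289), where 5.62% of tested genes rose. DESeq2 with line called it in Smad4-off cells too (adjusted p = 0.0372). The edgeR call was lost without line in edgeR (adjusted p = 0.427) and DESeq2 (adjusted p = 0.402), without the B87 library of either treatment (adjusted p = 0.143 and 0.0627) or without the B73 TGFβ1 library (adjusted p = 0.159). The sum lay below the level of *Tmem176a* alone in the Smad4-off groups and above it in Smad4-on cells under TGFβ1, and its part in the differences of the pair was not tested.

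The lymphocyte markers *Cd3e*, *Cd3d*, *Cd8a* and *Ncr1* had 0 counts in all libraries.

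Markers of other cells were set beside the pair in the same way. *Acta2*, a smooth muscle actin and 1 of 3 fibroblast markers tested of 7, rose in all 4 comparisons (edgeR adjusted p = 0.00109 to 0.00714), among them Smad4 under SB505124, where 0.636% of tested genes rose, although in none without line by edgeR (adjusted p = 0.153 to 0.854) or DESeq2 (adjusted p = 0.084 to 0.326). The other tested fibroblast markers, *Pdgfrb* and *Pdgfra*, had at most 34 and 18 counts in B73, but up to 653 and 154 in B87, and the untested *Dcn*, *Lum*, *Thy1* and *Fap* had at most 7 counts. The fibroblast sum was lowest (12.3 to 38.5 CPM) where *Tmem176a* and *Tmem176b* were highest, and highest (195 to 720 CPM) where they were lowest. In the latter group *Acta2* alone stood at 195 CPM in B73 and 701 in B87, nearly all of the sum. *Pdgfrb* was highest in other groups, at 1.46 CPM in B73 (Smad4 off, TGFβ1) and 27.2 in B87 (Smad4 on, SB505124). The part of the fibroblast sum in the differences of the pair was not tested. Endothelial markers gave at most 26.1 CPM in all, and the acinar list had 1 tested gene, with 0 called in any comparison by edgeR or DESeq2 with line and 0 at an unadjusted p under 0.05. Of the 9 epithelial markers, all tested, *Krt19* fell by 2.33 ± 0.22 (SE, edgeR adjusted p = 0.000454; 0.0568 in edgeR without line) under TGFβ1 with Smad4 on. *Cdh1* fell as well (edgeR adjusted p = 0.00936), whereas *Cldn4* rose at least 172-fold from at most 3 counts (edgeR adjusted p = 0.000215). Without line the *Cdh1* call was lost in edgeR (adjusted p = 0.295) and DESeq2 (adjusted p = 0.231), and the *Cldn4* call in edgeR (adjusted p = 0.0875). With Smad4 off, *Krt19* fell (edgeR adjusted p = 0.0067) and *Cldn4* rose (edgeR adjusted p = 0.00424). For Smad4 under TGFβ1, *Muc1* fell (edgeR adjusted p = 0.0157) and *Cldn4* rose (edgeR adjusted p = 0.00327). Without line the *Muc1* call was lost in edgeR (adjusted p = 0.641) and DESeq2 (adjusted p = 0.497). Its edgeR log2 fold change was -2.33, and -2.55 or -2.20 without the Smad4-on TGFβ1 library of B73 or B87. DESeq2 with line did not call *Cldn4* in the latter 2 comparisons (adjusted p = 0.0743 and 0.316). The 9 together ranged from 1220 to 5840 CPM in Smad4-on cells under TGFβ1 and from 2110 to 4040 CPM in Smad4-off cells under SB505124, ranges that overlap. Over the 4 comparisons in the order given, edgeR called 2, 0, 3 and 2 of the epithelial markers. Of the 2 tested endothelial ones (*Kdr* and *Cdh5*) it called 1, 0, 1 and 2. In the same order, 3.12%, 1.09%, 13.9% and 5.93% of all tested genes were called. *Kdr* fell for Smad4 under TGFβ1 (log2 fold change -3.35, edgeR adjusted p = 0.00289), and the endothelial calls between treatments were rises. In edgeR without line the counts were 0, 0, 0 and 0 for the epithelial markers and 0, 0, 1 and 0 for the endothelial ones. For Smad4 under SB505124, DESeq2 with line called 1 gene of each of these lists (*Muc1* and *Kdr*), and 2 epithelial and 1 endothelial gene had an unadjusted edgeR p under 0.05.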

How the data were processed

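The authors sequenced stranded poly(A) libraries as single-end reads of 75 bp and deposited raw counts per gene. Their processing notes name FastQC 0.11.5, Trimmomatic 0.36, STAR 2.5.3a and featureCounts 1.6.3 with GRCm38 (mm10), and the settings for strand and for reads with several positions were not given in the sources used here. Positions in the table equalled GENCODE M21 for both genes. Counts were normalized by TMM and tested with edgeR 4.0.16 (R 4.3.3) by the quasi-likelihood test with group and line, all 8 libraries in 1 fit, on the 14301 genes kept by filterByExpr. Genes were called at a Benjamini-Hochberg adjusted p under 0.05 and over 2-fold. The adjustment covered all tested genes, and p-values measure only the spread between these libraries. Log2 CPM used a prior count of 2. Line was kept as a block because the labels name the same 2 lines in every group, and the deviations of the lines from the group means correlated between groups at 0.642 to 0.774. DESeq2 1.42.0 and the other alternatives are given in the closing section.

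The members and gene lists were chosen with earlier results of these data known, so no test was made of the pair and no adjustment over a list alone. Named genes were the pair, *Smad4*, tested genes within 500 kb, up to 4 called genes per list and comparison (otherwise up to 2 of the highest), and the 5 most alike by each correlation. *Nlrp3*, *Ms4a10* and other genes named at low counts, *Col4a3*, *Col4a4* and *Thsd4* were named after their values were seen. Promoter sequence came from RefSeq (GRCm38.p6), in which both genes were matched by symbol. Protein sequences were not used here. Some items are not reported here.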

Additional observations from a re-analysis of the deposited data

How the results depend on the processing

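All 8 differences of the pair kept their direction under DESeq2 size factors, library totals alone, prior counts of 0.5 and 5, and in each line. With library totals alone, the Smad4 difference under TGFβ1 was -2.13 (*Tmem176a*) and -2.07 (*Tmem176b*) and the treatment difference in Smad4-on cells -1.85 and -1.32, each further from the main value than the spread of the lines. With 1 line left out, the differences of *Tmem176a* ran from -2.08 to -1.95 and from -1.30 to -1.10 (Smad4 under TGFβ1 and SB505124) and from -1.79 to -1.64 and from -1.01 to -0.79 (treatment with Smad4 on and off). Those of *Tmem176b* ran from -1.99 to -1.91, from -1.45 to -1.03, from -1.27 to -1.12 and from -0.66 to -0.31.

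Numbers of called genes depended more on the processing, the cause of which was not tested. In the order Smad4 under TGFβ1, Smad4 under SB505124, treatment with Smad4 on and treatment with Smad4 off, they were 446, 156, 1993 and 848. With no replicate block, that is, without line, edgeR called 36, 2, 1035 and 168, and DESeq2 261, 97, 1363 and 479. Without a filter on low counts there were 783, 403, 2305 and 1172, and with at least 10 counts in every library 297, 77, 1293 and 519. With only the 4 libraries compared, the count for Smad4 under SB505124 was 73. Leaving out 1 library gave 156 to 453, 46 to 161, 1567 to 2101 and 377 to 879. DESeq2 with line and DESeq2 size factors stayed within 1.5 times the main counts. The replicate block bears on tests of other genes only, since the pair was not tested. With 1 library per line and group, a line left out leaves no test.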
